A study of Mus musculus with 12 samples.

Results

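The genes described here build the cornified envelope, the protein shell that replaces the plasma membrane of the dead cells at the skin surface. They were taken from the gene table by symbol: every gene named Sprr or Lce followed by a digit, and Ivl, Lor, Flg, Flg2, Hrnr, Rptn, Cnfn, Tgm1, Tgm3 and Casp14. All 47 genes that the symbols gave reached 10 counts in at least 1 of 12 libraries, and 22841 of the 45777 genes in the table passed the same minimum. They comprised 16 Sprr genes (12 of them Sprr2), 14 Lce1 genes, 6 Lce3 genes, Lce6a and 10 single genes. RNA came from mouse hindlimbs that were frozen at once and extracted with Trizol, and polyadenylated RNA was sequenced from strand-specific TruSeq libraries. The VtA group had lymphedema of the limb, a vascularized lymph node transfer and ABTAA, an antibody that binds angiopoietin-2 and activates the receptor Tie2. The VLNT group had lymphedema and the lymph node transfer without the antibody. The LE group had lymphedema and neither treatment. Each group had 4 libraries, numbered here as in the labels, and no group was labelled as untreated or healthy. The labels give no strain, sex, age or time after surgery. The labels do not say whether the 4 libraries of a group came from separate animals, so p-values measure the spread between these libraries, which may in part be technical.

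Keratinocytes divide in the basal layer, where they make the keratins Krt5 and Krt14, and switch to Krt1 and Krt10 as they move up into the spinous layer. In the granular layer they make involucrin and loricrin, which transglutaminases cross-link under the plasma membrane, and the S100-fused proteins filaggrin, filaggrin-2, hornerin and repetin. Small proline-rich (Sprr) and late cornified envelope (Lce) proteins are cross-linked into the same shell. Most of these genes lie side by side in the epidermal differentiation complex, and many Sprr2, Lce3 and Sprr1 genes are known for their induction in wounded or inflamed skin, whereas loricrin and most Lce1 genes are known from resting epidermis. In the table, 43 of the 47 genes lay on chromosome 3 between positions 92080271 and 93399442 of GRCm38, a stretch of 1.319 Mb. Casp14, Tgm1, Tgm3 and Cnfn lay on other chromosomes.

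The bases upstream of 9 members are shown because these genes took different courses in VtA limbs. Relative to basal keratins, Sprr2d, Sprr2b, Rptn, Flg and Lce3a were lower in VtA2 to VtA4 than in every VLNT library, and Lor, Flg2 and Lce1m were higher, as described further on. Sprr2a1, a Sprr2 gene whose levels overlapped between these groups, is shown beside them. Each line gives the 250 bases before the RefSeq transcription start in GRCm38.p6, 5′ to 3′ on the gene's strand. Capitals mark the letters TGANTCA, the core to which AP-1 (Fos and Jun) factors can bind, and the letters TATAAA, known as a TATA box. Sequences without capitals hold neither. Sprr2d lies on the plus strand at chr3:92338890-92339139, Sprr2b on the plus strand at chr3:92316455-92316704 and Sprr2a1 on the plus strand at chr3:92215585-92215834. Rptn lies on the plus strand at chr3:93393449-93393698, Flg on the plus strand at chr3:93273296-93273545 and Flg2 on the plus strand at chr3:93197023-93197272. Lor lies on the minus strand at chr3:92083143-92083392, Lce3a on the minus strand at chr3:92926231-92926480 and Lce1m on the minus strand at chr3:93019062-93019311.
Sprr2d: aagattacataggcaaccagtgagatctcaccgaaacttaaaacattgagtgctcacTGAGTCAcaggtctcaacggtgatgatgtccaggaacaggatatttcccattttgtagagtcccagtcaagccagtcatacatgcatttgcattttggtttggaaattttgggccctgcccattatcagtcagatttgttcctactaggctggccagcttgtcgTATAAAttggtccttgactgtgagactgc
Sprr2b: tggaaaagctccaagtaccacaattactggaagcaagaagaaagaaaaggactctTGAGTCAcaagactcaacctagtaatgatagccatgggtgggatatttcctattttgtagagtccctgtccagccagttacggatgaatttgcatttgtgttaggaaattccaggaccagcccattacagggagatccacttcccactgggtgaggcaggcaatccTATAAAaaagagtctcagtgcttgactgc
Sprr2a1: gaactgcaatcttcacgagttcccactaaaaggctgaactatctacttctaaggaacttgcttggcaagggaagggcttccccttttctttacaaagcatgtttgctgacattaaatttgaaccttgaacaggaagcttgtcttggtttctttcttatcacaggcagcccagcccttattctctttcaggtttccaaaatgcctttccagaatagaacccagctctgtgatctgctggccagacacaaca
Rptn: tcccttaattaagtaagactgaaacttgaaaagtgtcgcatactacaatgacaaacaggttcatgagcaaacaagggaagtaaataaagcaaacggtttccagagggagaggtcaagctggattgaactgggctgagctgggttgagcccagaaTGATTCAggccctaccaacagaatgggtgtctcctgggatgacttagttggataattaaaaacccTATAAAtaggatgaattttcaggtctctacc
Flg: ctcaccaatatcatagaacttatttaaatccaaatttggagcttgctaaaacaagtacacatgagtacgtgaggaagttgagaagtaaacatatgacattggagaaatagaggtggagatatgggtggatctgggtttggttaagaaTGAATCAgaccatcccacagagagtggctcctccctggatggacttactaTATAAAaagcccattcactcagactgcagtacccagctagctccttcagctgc
Flg2: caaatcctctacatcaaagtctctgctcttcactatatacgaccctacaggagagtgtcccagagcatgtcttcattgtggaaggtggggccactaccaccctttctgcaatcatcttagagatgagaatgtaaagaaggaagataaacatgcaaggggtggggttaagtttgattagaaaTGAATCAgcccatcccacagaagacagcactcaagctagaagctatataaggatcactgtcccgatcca
Lor: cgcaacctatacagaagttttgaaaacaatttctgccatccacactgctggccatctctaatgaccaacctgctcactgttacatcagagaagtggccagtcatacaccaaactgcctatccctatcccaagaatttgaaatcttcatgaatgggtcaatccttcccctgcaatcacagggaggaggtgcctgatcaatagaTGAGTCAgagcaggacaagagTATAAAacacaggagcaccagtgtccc
Lce3a: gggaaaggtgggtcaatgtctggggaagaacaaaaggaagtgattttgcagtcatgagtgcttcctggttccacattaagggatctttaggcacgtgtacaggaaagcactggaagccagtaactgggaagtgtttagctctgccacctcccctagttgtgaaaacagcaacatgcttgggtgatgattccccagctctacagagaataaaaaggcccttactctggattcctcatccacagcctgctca
Lce1m: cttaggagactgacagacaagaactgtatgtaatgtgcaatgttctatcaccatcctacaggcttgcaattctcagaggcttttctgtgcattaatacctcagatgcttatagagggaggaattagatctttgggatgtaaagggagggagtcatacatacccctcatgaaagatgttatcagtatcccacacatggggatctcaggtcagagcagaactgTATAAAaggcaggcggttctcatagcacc
RefSeq promoter windows of 300 bases, 250 before and 50 after the start, were found for 44 of the 47 members. TGANTCA, read on both strands, was present in 14 of the 44 windows, against 7.93% of all 27025 windows in the table. It was present in 9 of 14 Sprr windows, in 0 of 13 Lce1 windows, in 0 of 6 Lce3 windows and in 5 of 10 single genes (Ivl, Lor, Flg, Flg2 and Rptn). The match began at position -193 in Sprr2d, at -48 in Lor, at -69 in Flg2, at -103 in Flg and at -96 in Rptn, counted from the start site at 0. TATAAA was present in 20 of 44 windows, against 14.16% of all windows, and began at -29 in Sprr2d and at -27 in Lor. The letters were thus found both in members that were lower in VtA limbs (Sprr2d, Rptn, Flg) and in members that were higher (Lor, Flg2). The windows of Sprr2a1 and Sprr2a2 were identical over 300 bases, and those of Sprr2d and Sprr2e shared 88.0% of bases. AGGAAG (ETS factors) was present in 22 windows, against 35.15% of all; TTGCNNAA (C/EBP factors) was present in 6, against 10.75%. The motif of interferon regulatory factors was present in 1 window, against 3.49% of all. A match is a run of letters and does not show that a factor bound there.

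Library totals lay between 56042030 and 72540147 counts, and the libraries differed far more in how much epidermal RNA they held. Counts of Krt5 plus Krt14 were 47, 20903, 170151 and 108511 in VtA1 to VtA4. They were 609475, 460361, 694414 and 256567 in VLNT1 to VLNT4, and 1014410, 752800, 594225 and 138 in LE1 to LE4. VtA1 and LE4 therefore held almost no basal keratin. LE1 stood apart in another way, with 7.94 Krt14 counts per Krt5 count, against 1.56 in LE2 and 2.35 in LE3. This ratio was 0.508, 0.82 and 0.518 in VtA2 to VtA4, below LE1 to LE3 and below every VLNT library (1.15 to 2.91). It was 2.13 in VtA1 and 0.484 in LE4, on few counts. Summed CPM (counts per 1000000 counts of the library after TMM scaling) of 14 skeletal muscle genes, all of them found, ranged over 142700 to 243500 in VtA, 36330 to 160600 in VLNT and 7363 to 273900 in LE. Summed CPM of 10 spinous keratinocyte genes ranged over 33.3 to 7658 in VtA, 9352 to 15860 in VLNT and 18.8 to 15580 in LE. In whole tissue, fewer cells of a type and less RNA per cell cannot be told apart. Each result is therefore given on 2 scales, as CPM and as a relative level. The relative level is the counts of a gene per 1000 counts of Krt5 plus Krt14 in the same library. Krt5 made up a larger part of that sum in VtA2 to VtA4 than in VLNT. Set against Krt5 alone, levels in VtA2 to VtA4 would therefore be lower beside VLNT than the relative levels given here.

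The 47 genes together made up 0.00146%, 0.0248%, 0.202% and 0.110% of counts in VtA1 to VtA4. Their share was 0.991%, 0.569%, 0.599% and 0.493% in VLNT1 to VLNT4, and 1.04%, 1.09%, 0.986% and 0.000131% in LE1 to LE4. Every VtA library was below every VLNT library, whereas LE spanned the whole range because of LE4, in which 39 members had a count of 0. VtA1 had 24 members at 0. Relative to basal keratin the sum did not follow this split: it was 17447, 853, 862 and 714 per 1000 in VtA, 924, 884, 608 and 1361 in VLNT, and 572, 857, 1137 and 667 in LE. Apart from VtA1, whose denominator is 47 counts, the groups overlapped. The summed envelope genes thus stood at like levels per basal keratin in VtA2 to VtA4 and in VLNT, and the differences lay in which members made up the sum.

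**Figure D1:**
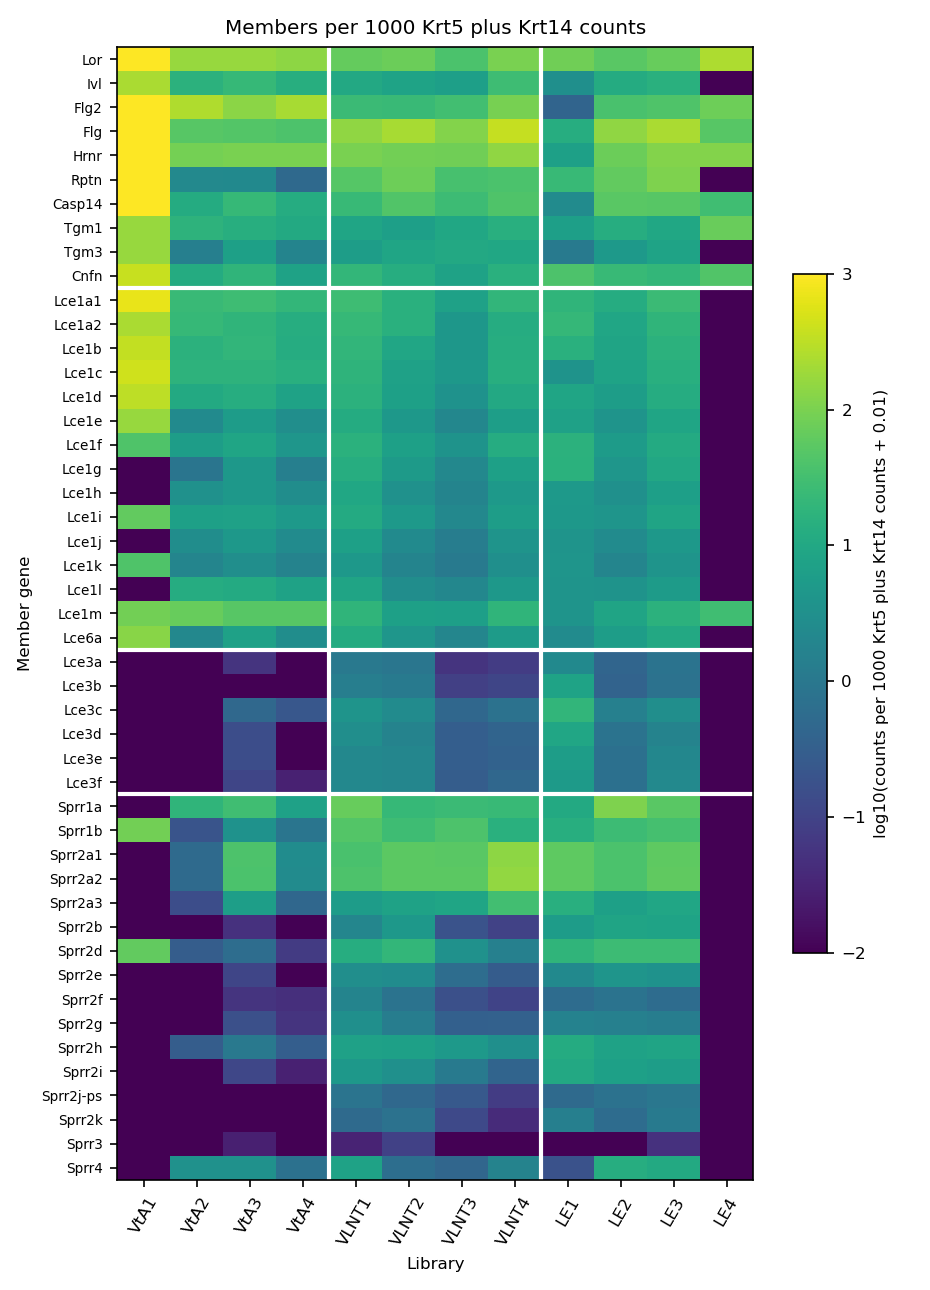
Relative levels of the 47 members (rows, ordered by family) in the 12 libraries (columns, VtA, then VLNT, then LE), as log10 of the counts per 1000 Krt5 plus Krt14 counts with 0.01 added and colours stopping at 3. The Sprr2 and Lce3 blocks are darkest or empty in VtA libraries, VtA1 stands at the top of the scale for most single genes because its denominator is 47 counts, and LE4 is empty for 39 members.

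Levels of different genes were compared per length, in the deposited TPM (transcripts per 1000000). Over the 10 libraries other than LE4 and VtA1, Lor, the most abundant protein of the mature envelope, had the highest median at 428 TPM. It was followed by Sprr1b at 358, Sprr1a at 295, Sprr2a2 at 217 and Cnfn at 213 TPM. The order differed by group. In VtA2 to VtA4 the highest median TPM belonged to Lor (223), Lce1m (157), Lce1a1 (81.2) and Flg2 (69.2), while Sprr1b stood at rank 26 with 2.90 TPM and Rptn at rank 33 with 0.338 TPM. In VLNT, Sprr1b (636), Sprr1a (457) and Lor (428) led. In LE1 to LE3, Sprr1a (1016), Cnfn (791), Sprr4 (716) and Lor (657) led.

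The shares of Lor, of Lce1 with Lce6a and of Sprr2 with Sprr3 among the envelope transcripts separated VtA from VLNT, also in VtA1. The VtA1 shares rest on 820 member counts, of which 66 were of Lor and 3 of Sprr2d, its only Sprr2 or Sprr3 counts. The shares of Sprr1 with Sprr4, of Cnfn, of Flg, Flg2 and Hrnr, and of Ivl, Rptn, Casp14, Tgm1 and Tgm3 overlapped between VtA and VLNT. Lor held 11.6%, 19.98%, 17.4% and 22.0% of the members' summed TPM in VtA1 to VtA4. In VLNT1 to VLNT4 it held 5.30%, 9.37%, 7.32% and 10.04%, so that the groups did not overlap. Lor held 8.38%, 4.85% and 5.59% in LE1 to LE3, and 45.9% in LE4, which had only 92 member counts in all. The Lce1 genes with Lce6a held 49.9%, 54.7%, 50.5% and 54.4% in VtA, against 42.2%, 29.4%, 22.9% and 34.7% in VLNT and 33.5%, 19.7%, 33.6% and 10.2% in LE. Every VtA library was above every other library for this class. Sprr2 and Sprr3 held 0.917%, 0.241%, 5.97% and 0.724% in VtA. They held 11.7%, 22.3%, 19.3% and 22.6% in VLNT, and 23.1%, 19.1%, 18.0% and 0% in LE. VtA was below every library but LE4 here.

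**Figure D2:**
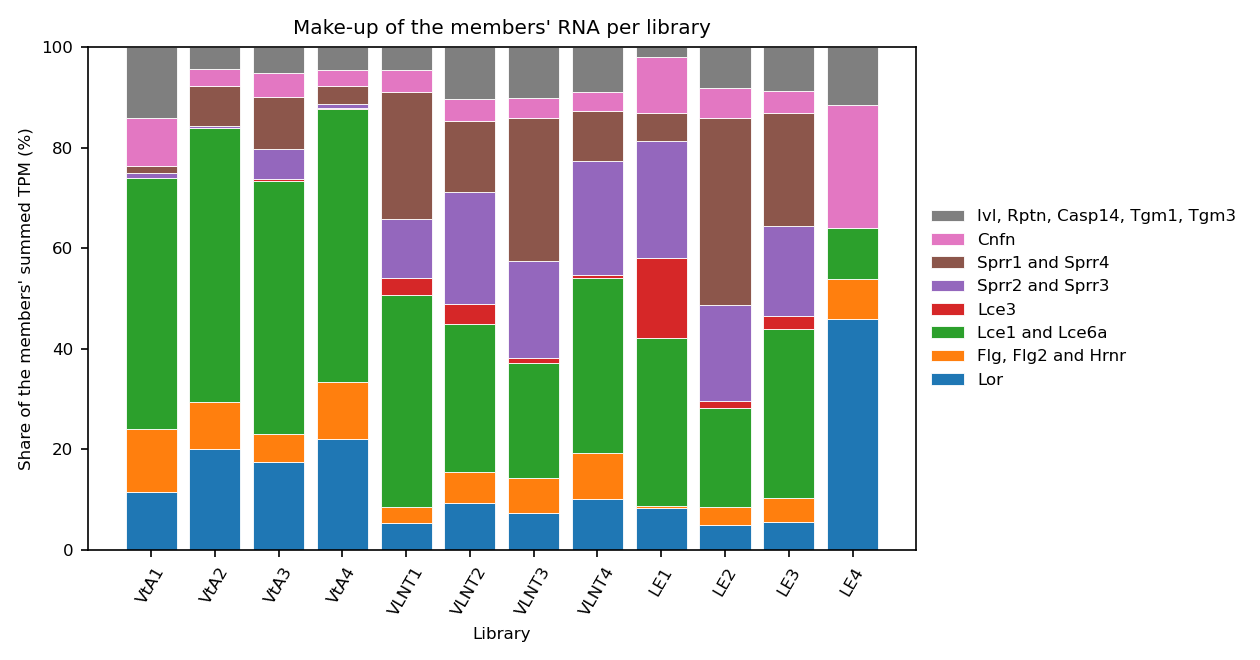
Share of the members' summed TPM (percent, y axis) held by each class of member in each library (x axis, VtA, then VLNT, then LE). Lce1 with Lce6a and Lor fill most of each VtA bar, and Sprr genes fill a larger part of the VLNT bars and of LE1 to LE3. The VtA1 bar rests on 820 counts and the LE4 bar on 92.

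The comparison of VtA with VLNT addresses what the antibody adds to the lymph node transfer. On the CPM scale all 46 members that passed the filter on low counts had lower fitted values in VtA (median log2 fold change -3.43, against -0.07 over all 19740 genes), but none passed the test. EdgeR's quasi-likelihood test with Benjamini-Hochberg adjustment called 0 of 46 members, and 0 (0.0%) of all genes, while 20 members and 1118 genes had an unadjusted p under 0.05. DESeq2 called 13 members, all of them lower in VtA, and 152 genes (0.77%, of which 0.765% lower and 0.00507% higher), and limma on log2 TPM called 0. Without overlap between the groups, 33 of 47 members were lower in all 4 VtA libraries than in all 4 VLNT libraries, where 7.53% of genes were, and 0 were higher, where 6.6% were.

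The Sprr and Lce3 families had the lowest medians. The family medians of the log2 fold change of VtA over VLNT were -6.71 for Lce3, -6.53 for Sprr, -2.77 for Lce6a, -2.51 for the single genes and -2.39 for Lce1. With the 3 members at 0 in all VtA libraries set to a floor of 3 counts per library, the medians were -6.57 for Lce3 and -5.72 for Sprr. Rptn, an S100-fused protein of the granular layer, had a log2 fold change of -7.17 ± 1.83 (SE) and Sprr1b one of -6.53 ± 2.05. Those of Flg2 (-0.22 ± 1.51), Lce1m (-0.44 ± 1.44) and Lor (-1.21 ± 1.45) were nearest to 0. The adjusted p of the members, by edgeR's quasi-likelihood test, lay between 0.653 and 0.954. Without LE4, whose spread enters the shared dispersion, 1 member was called (Rptn, -7.18 ± 0.774, adjusted p = 0.0139 by edgeR's quasi-likelihood test), among 10 genes (0.0489%). Without LE4 and VtA1, Rptn stood at -7.02 ± 0.893 (adjusted p = 0.0536 by the same test) and 1 gene was called.

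Relative to Krt5 plus Krt14 the members split, with Sprr2 and Lce3 genes lower in VtA and Lor, Flg2 and Lce1m higher. In the fit of all 12 libraries edgeR's quasi-likelihood test called 7 members, all of them lower in VtA: Sprr2b, Sprr2e, Sprr2f, Sprr2j-ps, Sprr2k, Lce3a and Lce3b. All 7 had a count of 0 in VtA1, whose denominator is 47 counts, whereas Sprr2d, with 3 counts there, was not lower in this fit. Calls in this fit thus depend in part on whether VtA1 held a read of the gene. Of all genes 85.2% were called, 1.1% lower and 84.1% higher, on this scale, since genes of muscle and other tissue stand high where basal keratin is scarce. The calls rest on the 12 libraries together: 0 members were called without VtA1, without VLNT1, without VLNT2, without VLNT3 or without VLNT4, and 0 with Krt1 plus Krt10 as the denominator. Without both VtA1 and LE4, the libraries with almost no basal keratin, 23 were called. In that fit of 10 libraries 21 members fell in VtA, where 1.45% of genes did, and 2 rose, where 72.8% did; the median of all genes was 2.69 (log2). The 21 were 13 Sprr genes, all 6 Lce3 genes, Flg and Rptn, and the 2 were Lce1m and Flg2. The values by role follow, with the fits of the 10 libraries.

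Lor, the main glycine-rich wall protein, had relative levels of 1400, 172, 169 and 142 per 1000 in VtA1 to VtA4. It had 66.1, 75.1, 37.9 and 99.8 in VLNT, and 82.2, 51.7, 69.6 and 246 in LE. All VtA libraries were above all VLNT libraries and above LE1 to LE3, and the lone high LE value is that of LE4. Set against Krt5 alone, Lor in VtA2 to VtA4 overlapped VLNT. VtA4 held 15405 Lor counts beside 71493 of Krt5, and VLNT2 held 34580 beside 117769. Without VtA1 and LE4, Lor averaged 161 ± 16.5 per 1000 in VtA (SD, n = 3), 69.7 ± 25.6 in VLNT (n = 4) and 67.9 ± 15.4 in LE (n = 3). The log2 fold change of VtA over VLNT was 1.21 ± 0.906 (SE) and did not pass the test. Ivl, the early scaffold that is laid down before loricrin, had 234, 16.4, 21.9 and 13.9 per 1000 in VtA, 10.4, 7.97, 6.54 and 27.8 in VLNT, and 3.08, 11.7, 15.01 and 0 in LE. VtA2 to VtA4 lay within the VLNT range, and the log2 fold change was 0.40 ± 0.835.

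The S100-fused proteins parted. Flg2, a filaggrin relative that is needed for cornification, had 1060, 253, 134 and 223 per 1000 in VtA, 25.05, 24.9, 31.0 and 92.2 in VLNT, and 0.398, 36.6, 42.4 and 79.7 in LE. Every VtA library was above every other library. The mean of VtA2 to VtA4 was 203 ± 61.9 per 1000 (SD, n = 3), against 43.3 ± 32.8 in VLNT (n = 4), and the log2 fold change was 2.23 ± 1.01 (SE, adjusted p = 0.0432 by edgeR's quasi-likelihood test). Flg, the precursor of filaggrin and of the skin's natural moisturizing factor, had 5620, 49.9, 45.1 and 40.7 per 1000 in VtA, 147, 223, 120 and 360 in VLNT, and 13.2, 146, 232 and 50.7 in LE. VtA2 to VtA4 were below every VLNT library while VtA1 was above them all, and LE1 and LE4 were low as well. Flg averaged 45.3 ± 4.58 in VtA2 to VtA4 and 213 ± 108 in VLNT, and its log2 fold change of -2.23 ± 1.04 passed the test by a small margin (adjusted p = 0.0491 by edgeR's quasi-likelihood test). With VtA1 and LE4 in the fit the Flg value was 2.75 and did not pass the test.

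Rptn fell most among these 4 genes. It had 1260, 2.30, 2.39 and 0.507 per 1000 in VtA, 47.0, 78.4, 35.5 and 38.2 in VLNT, and 23.8, 61.6, 110 and 0 in LE. VtA2 to VtA4 were each below every VLNT library and below LE1 to LE3, at 1.73 ± 1.06 per 1000 (SD, n = 3), against 49.8 ± 19.7 in VLNT (n = 4). The log2 fold change was -4.85 ± 1.12 (adjusted p = 0.00484 by edgeR's quasi-likelihood test), and with VtA1 and LE4 in the fit it was 2.65 and did not pass the test. Hrnr, the hornerin gene beside Flg, had 3400, 91.8, 101 and 98.3 per 1000 in VtA, 97.0, 87.4, 80.6 and 146 in VLNT, and 6.78, 76.1, 116 and 116 in LE. Its VtA2 to VtA4 values lay within the VLNT range, with a log2 fold change of -0.09 ± 0.944.

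The enzymes and cornifelin did not pass the test. Tgm1, the membrane-bound transglutaminase that cross-links the envelope, had 170, 17.4, 13.6 and 10.7 per 1000 in VtA, 8.73, 6.76, 9.35 and 14.2 in VLNT, and 6.70, 13.2, 9.70 and 72.5 in LE. Tgm3, the cytosolic transglutaminase, had 170, 1.44, 7.02 and 1.81 in VtA, 5.94, 8.55, 10.5 and 9.51 in VLNT, and 1.16, 5.06, 7.83 and 0 in LE. VtA2 to VtA4 overlapped VLNT for both, and the log2 fold change of Tgm1 was 0.51 ± 0.796 and that of Tgm3 was -1.33 ± 0.858 (adjusted p = 0.15 by edgeR's quasi-likelihood test). Casp14, the caspase that takes part in filaggrin breakdown, had 1060, 12.2, 22.2 and 12.3 in VtA, 23.4, 43.8, 26.5 and 42.9 in VLNT, and 2.53, 51.9, 51.1 and 29.0 in LE. VtA2 to VtA4 were below every VLNT library, by a log2 fold change of -1.14 ± 0.933 that did not pass the test. Cnfn, cornifelin, an envelope component, had 383, 11.7, 18.4 and 7.63 in VtA, 20.9, 13.3, 7.63 and 15.1 in VLNT, and 40.9, 23.9, 20.1 and 43.5 in LE, with a log2 fold change of VtA over VLNT of -0.18 ± 0.837.

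The Sprr2 genes, cross-bridging proteins of the envelope, were lower as a family. Their summed relative level was 63.8, 1.77, 87.0 and 6.13 per 1000 in VtA, 119, 158, 126 and 330 in VLNT, and 182, 141, 182 and 0 in LE. All VtA libraries were below all VLNT libraries, and VtA3 was the highest of the VtA libraries. The VtA1 value rests on 3 counts of Sprr2d. Of the 12 genes, all had a lower mean in VtA2 to VtA4 than in VLNT and 10 had no overlap, with a median ratio of means of 0.036. Sprr2d had 63.8, 0.287, 0.594 and 0.0645 per 1000 in VtA, 13.1, 20.7, 3.35 and 1.47 in VLNT, and 18.5, 27.2, 26.3 and 0 in LE. VtA2 to VtA4 were below every VLNT library, with a log2 fold change of -4.92 ± 1.09 (adjusted p = 0.00484 by edgeR's quasi-likelihood test). With VtA1 and LE4 in the fit the Sprr2d value was 0.38 and did not pass the test. Sprr2b had 0, 0, 0.0411 and 0 per 1000 in VtA, 1.98, 4.57, 0.180 and 0.0857 in VLNT, and 5.79, 8.15, 7.89 and 0 in LE. Only VtA3 held counts of it among VtA libraries, and the VLNT values span a wide range. In the fit of all 12 libraries its log2 fold change was -6.70 ± 2.94 (adjusted p = 0.0367), and without VtA1 and LE4 it was -6.43 ± 1.32 (adjusted p = 0.00484), both by edgeR's quasi-likelihood test.

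Sprr2a2, the Sprr2 gene of highest TPM, did not follow so evenly, with 0, 0.526, 39.2 and 2.57 per 1000 in VtA, 40.2, 54.9, 54.7 and 151 in VLNT, and 57.1, 38.7, 59.7 and 0 in LE. VtA3 came close to the lowest VLNT library, and the log2 fold change was -2.42 ± 1.08 (adjusted p = 0.0401 by edgeR's quasi-likelihood test). Sprr2e had 0, 0, 0.0999 and 0 per 1000 in VtA, 3.004, 2.70, 0.596 and 0.273 in VLNT, and 2.33, 4.12, 3.55 and 0 in LE. Sprr2f had 0, 0, 0.0470 and 0.0369 in VtA, 1.79, 0.799, 0.154 and 0.0896 in VLNT, and 0.570, 0.782, 0.564 and 0 in LE. Sprr2i had 0, 0, 0.106 and 0.0184 in VtA, 4.60, 3.27, 1.10 and 0.405 in VLNT, and 10.6, 6.82, 6.02 and 0 in LE. In all 3 genes VtA2 to VtA4 were below every VLNT library, and VLNT4 was the lowest of the VLNT libraries. The 0 of VtA1 does not show a lower level, since at VLNT levels a denominator of 47 counts would hardly yield a read. With 20903 counts of Krt5 plus Krt14, a 0 in VtA2 is also limited by depth against the lowest VLNT values. Their log2 fold changes without VtA1 and LE4 were -5.25 ± 1.17, -4.34 ± 1.18 and -5.49 ± 1.12 in that order (adjusted p = 0.00484 for each by edgeR's quasi-likelihood test).

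A further 3 members had a count of 0 in all 4 VtA libraries. On the CPM scale VtA was set to a floor of 3 counts per library (0.0566 CPM). The VLNT means were then higher by at least 52.6-fold for Sprr2j-ps (2.97 CPM) and at least 43.6-fold for Sprr2k (2.46 CPM). For Lce3b (4.63 CPM) the bound was at least 81.9-fold. The lower share of epidermal RNA in VtA enters these CPM bounds. Relative to basal keratin, the log2 ratio of VtA2 to VtA4 over VLNT at this floor was -2.501 for Sprr2k and -3.382 for Lce3b. A 0 in VtA2, with 20903 counts of Krt5 plus Krt14, is limited by depth here too. The relative levels of Sprr2j-ps were 0.837, 0.484, 0.240 and 0.0663 per 1000 in VLNT and 0.522, 0.756, 0.963 and 0 in LE. Those of Sprr2k were 0.527, 0.752, 0.115 and 0.0312 in VLNT and 1.44, 0.581, 1.13 and 0 in LE. For both genes VLNT1 and VLNT2 stood near LE1 to LE3, and VLNT3 and VLNT4 below them. Lce3b had 1.36, 1.08, 0.0778 and 0.101 per 1000 in VLNT and 7.87, 0.380, 0.764 and 0 in LE, with LE1 far above the rest.

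Of the other Sprr genes, Sprr1b fell, and Sprr1a, Sprr3 and Sprr4 overlapped between VtA and VLNT. Sprr1b, a cross-bridging protein induced in stressed keratinocytes, had 85.1, 0.191, 3.49 and 0.857 per 1000 in VtA, 46.6, 27.5, 39.8 and 15.2 in VLNT, and 13.8, 27.2, 34.2 and 0 in LE. VtA2 to VtA4 were below every VLNT library and below LE1 to LE3, with a log2 fold change against VLNT of -4.40 ± 1.07 (adjusted p = 0.00484 by edgeR's quasi-likelihood test). Sprr1a had 0, 19.1, 29.5 and 7.24 per 1000 in VtA, 68.5, 22.1, 25.8 and 23.3 in VLNT, and 10.8, 106, 53.5 and 0 in LE. The groups overlapped, and the log2 fold change of -0.91 ± 0.936 did not pass the test. Sprr4 had 0, 3.44, 3.32 and 0.737 in VtA, 7.67, 0.621, 0.428 and 1.74 in VLNT, and 0.173, 13.1, 11.01 and 0 in LE, and all 3 groups overlapped.

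**Figure D3:**
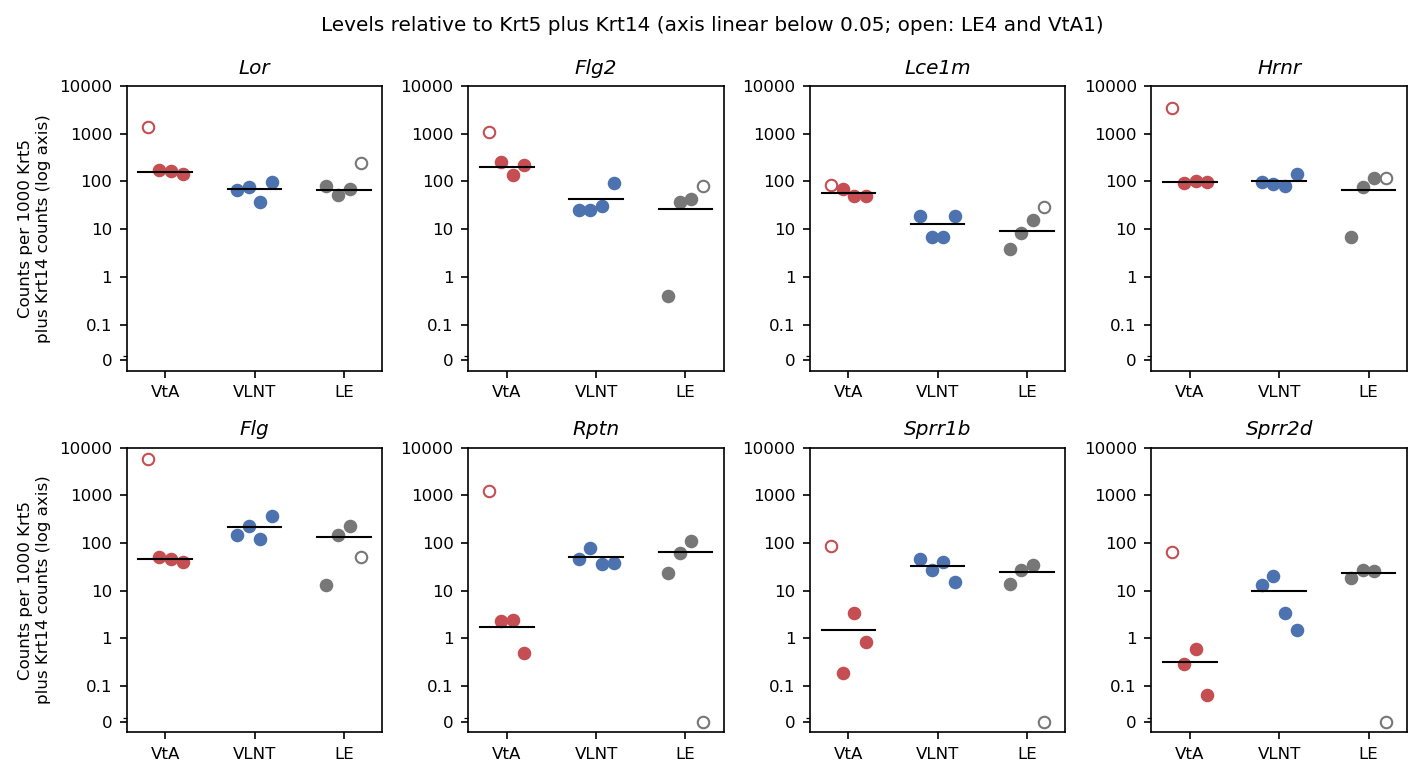
Relative levels (counts per 1000 Krt5 plus Krt14 counts; the axis is logarithmic and linear below 0.05) of Lor, Flg2, Lce1m, Hrnr, Flg, Rptn, Sprr1b and Sprr2d in each library of VtA, VLNT and LE. Open symbols are VtA1 and LE4, and each line is the mean without them. The VtA2 to VtA4 points of Lor, Flg2 and Lce1m lie above the VLNT points, those of Hrnr among them, and those of Flg, Rptn, Sprr1b and Sprr2d below them.

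The Lce1 genes, which encode late envelope proteins of resting epidermis, showed no common direction. With Lce6a they summed to 2532, 200, 204 and 148 per 1000 in VtA, 217, 96.6, 48.9 and 142 in VLNT, and 134, 86.8, 173 and 29.0 in LE. Of the 15 genes, 8 had a higher and 7 a lower mean in VtA2 to VtA4 than in VLNT, with a median ratio of 1.02. Lce1m was the 1 without overlap. It had 85.1, 69.7, 50.4 and 49.4 per 1000 in VtA, 19.1, 6.92, 6.71 and 19.0 in VLNT, and 3.78, 8.29, 15.98 and 29.0 in LE, so that every VtA library was above every other library. Lce1m averaged 56.5 ± 11.4 in VtA2 to VtA4 (SD, n = 3), against 12.9 ± 7.04 in VLNT (n = 4) and 9.35 ± 6.17 in LE1 to LE3 (n = 3). The log2 fold change over VLNT was 2.13 ± 0.875 (adjusted p = 0.0275 by edgeR's quasi-likelihood test). Lce1a1 had 681, 24.4, 28.3 and 20.6 in VtA, 28.4, 14.8, 7.24 and 19.8 in VLNT, and 18.6, 12.2, 25.5 and 0 in LE. Lce1a2 had 234, 22.6, 18.8 and 12.8 in VtA, 22.2, 15.1, 4.39 and 12.5 in VLNT, and 21.8, 8.97, 18.7 and 0 in LE. For both, VtA2 to VtA4 overlapped VLNT and LE, and the log2 fold changes over VLNT were 0.48 ± 0.837 for Lce1a1 and 0.41 ± 0.831 for Lce1a2. Lce1b had 340, 16.4, 19.1 and 12.6 in VtA, 19.3, 9.27, 4.33 and 13.2 in VLNT, and 15.1, 8.23, 16.3 and 0 in LE. Lce1f had 42.6, 6.12, 8.67 and 4.202 in VtA, 15.9, 6.93, 3.63 and 12.6 in VLNT, and 16.3, 5.65, 11.4 and 0 in LE. Both overlapped between all groups, and neither passed the test. Lce1l had 0, 12.2, 11.2 and 7.53 in VtA, 8.31, 2.87, 2.04 and 4.56 in VLNT, and 3.90, 3.66, 5.51 and 0 in LE, with VtA2 to VtA4 above LE1 to LE3 and overlapping VLNT.

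The Lce3 genes, whose human counterparts are known from psoriasis and barrier repair, fell together in the fit without VtA1 and LE4. They summed to 0, 0, 0.899 and 0.240 per 1000 in VtA, 13.6, 10.2, 1.47 and 2.16 in VLNT, and 50.3, 4.41, 10.5 and 0 in LE. VtA2 to VtA4 were below all VLNT libraries and below LE1 to LE3. The 0 of VtA1 does not show a lower level, since its denominator is 47 counts. Of the 6 genes, all had a lower mean in VtA2 to VtA4 than in VLNT and 5 had no overlap, with a median ratio of 0.0337. Lce3a had 0, 0, 0.047 and 0 per 1000 in VtA, 1.04, 0.888, 0.0475 and 0.0663 in VLNT, and 2.31, 0.410, 0.804 and 0 in LE. VLNT3 stood only just above VtA3, and the log2 fold change was -4.77 ± 2.12 in all 12 libraries (adjusted p = 0.0367) and -4.56 ± 1.29 without VtA1 and LE4 (adjusted p = 0.00484), both by edgeR's quasi-likelihood test. Lce3c had 0, 0, 0.470 and 0.221 per 1000 in VtA, 3.93, 2.58, 0.468 and 0.772 in VLNT, and 19.6, 1.47, 2.88 and 0 in LE, and was the Lce3 gene whose VtA and VLNT values touched.

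Counted over all 47 members, 19 were lower in VtA2 to VtA4 than in every VLNT library relative to basal keratin, where 0.871% of 22841 genes were, and 3 (Lor, Lce1m and Flg2) were higher, where 66.5% of genes were. The count of higher members is thus read against a scale on which most genes are higher. A split of the members by common knowledge of their use gave 16 of 22 wound- or stress-induced members lower without overlap, 6 overlapping and 0 higher. Among 21 members known from resting interfollicular epidermis, 3 were higher, 2 lower and 16 overlapped. Keratins, read on the same scale, did not all differ in 1 direction. The wound keratins Krt6a, Krt6b, Krt16 and Krt17, all 4 found, summed to 107, 123 and 69.9 per 1000 in VtA2 to VtA4. Their sum was 1166, 1379, 1330 and 613 in VLNT and 871, 1007 and 1194 in LE1 to LE3. Krt6a, Krt6b and Krt16 were each lower in VtA2 to VtA4 than in every VLNT library. Krt17 overlapped, at 40.9 to 87.8 per 1000 in VtA2 to VtA4 and 73.4 to 132.8 in VLNT. The suprabasal keratin Krt10 stood at 999, 1112 and 916 per 1000 in VtA2 to VtA4 and at 641, 535, 352 and 752 in VLNT, and its partner Krt1 at 245, 427 and 300 in VtA2 to VtA4 and at 606, 560, 389 and 566 in VLNT. The part of these keratins, of muscle content and of depth of epidermal RNA in the members' differences was not tested.

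Along chromosome 3 the members with like differences lay in blocks. Starting at Lor, 14 Sprr genes had a RefSeq start site between 132.7 and 417.4 kb. For the 13 of them with a count in VtA2 to VtA4, the median log2 ratio of VtA over VLNT (means of relative levels) was -3.35, and it was -2.92 with Sprr2k, at 0 in VtA, set to its floor of 3 counts per library. The 13 genes of the stretch Lce6a to Lce1l, between 538.5 and 768.1 kb, had a median of 0.03, and 5 of the 6 Lce3 genes between 843.1 and 909.1 kb had one of -4.85 (-4.76 with Lce3b, at 0 in VtA, set to its floor). Beyond them Lce1m (2.13) and Flg2 (2.23) were higher, Hrnr (-0.09) was level, and Flg (-2.23) and Rptn (-4.85) were lower, within 1310.6 kb of Lor. Neighbours thus differed in direction between Lce3f and Lce1m and among the S100-fused genes.

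**Figure D4:**
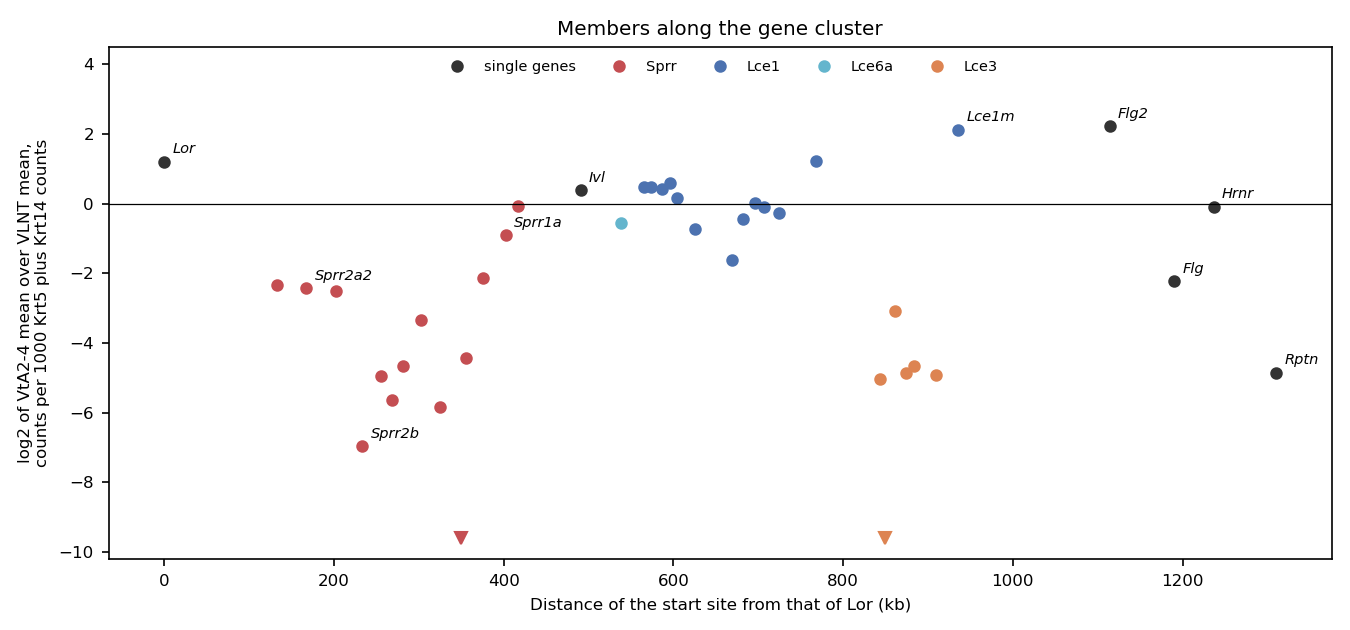
Position of 40 chromosome 3 members with a RefSeq entry, as distance from the Lor start site (kb, x axis), against the log2 ratio of the mean relative level in VtA2 to VtA4 over that in VLNT (y axis). Triangles are Sprr2k and Lce3b, which had 0 counts in VtA. The Sprr2 and Lce3 blocks lie below 0, the Lce1 block around 0, and Lor, Lce1m and Flg2 above it.

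VtA was also compared with LE, the group with neither treatment. This comparison uses the same VtA libraries as the one above. With all 12 libraries, edgeR's quasi-likelihood test on the CPM scale called 0 members and 0 genes (0.0%); 21 members and 3256 genes had an unadjusted p under 0.05, DESeq2 called 16 members and 797 genes (4.04%, of which 3.93% lower and 0.111% higher), and limma 0. Of the 46 members 44 were lower (median log2 fold change -3.92, against -0.11 over all genes). LE4 decided this call. Without LE4 29 members fell in VtA, where 16.5% of genes did, and without LE4 and VtA1 31 fell, where 9.25% did: 11 Sprr, 9 Lce1 and 6 Lce3 genes, Casp14, Flg, Rptn, Tgm1 and Cnfn. No member rose in either fit. Without LE1 as well, which was chosen after seeing the data, 24 were called. Among members with a count in VtA, the smallest p belonged to Sprr2b (-10.84 ± 2.43) and Sprr2i (-9.86 ± 2.24), with an adjusted p of 0.288 in all 12 libraries by edgeR's quasi-likelihood test.

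Relative to basal keratin, VtA against LE gave 0 members and 0 genes (0.0%) with all 12 libraries by edgeR's quasi-likelihood test, and 11 members and 1094 genes at an unadjusted p under 0.05. Without LE4 and VtA1, 18 members fell, where 1.92% of genes did, and 2 rose (Lce1m and Flg2), where 68.3% did. When LE1 was left out too, 18 members fell and 0 rose. Without overlap, 19 members were lower in VtA2 to VtA4 than in LE1 to LE3, where 1.73% of genes were, and 5 were higher (Lor, Lce1c, Lce1l, Lce1m and Flg2), where 68.1% were. For Rptn the means were 1.73 ± 1.06 per 1000 in VtA (SD, n = 3) and 65.1 ± 43.2 in LE (n = 3). For Sprr2d they were 0.315 ± 0.266 in VtA and 24.0 ± 4.77 in LE. For Lor the VtA mean was 161 ± 16.5, against 67.9 ± 15.4 in LE.

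The comparison of VLNT with LE addresses the lymph node transfer alone. Here the envelope genes did not pass any test: on the CPM scale edgeR's quasi-likelihood test called 0 members and 0 genes (0.0%), 0 members and 396 genes had an unadjusted p under 0.05, DESeq2 called 0 members and 1 gene (0.00507%), and limma 0. Of 46 members 36 were lower in VLNT (median log2 fold change -0.46, against 0.01 over all genes). On the relative scale 0 members and 0 genes (0.0%) were called with all 12 libraries, with 0 members and 14475 genes at an unadjusted p under 0.05. Without LE4 and VtA1 0 members and 7 genes (0.0344%) were called. The relative levels of 3 members, Sprr2b, Sprr2h and Sprr2i, were lower in all VLNT libraries than in LE1 to LE3, where 1.04% of genes were, and 0 members were higher, where 3.99% were. Sprr2b on the CPM scale had a log2 fold change of -2.30 ± 1.60 (adjusted p = 1 by edgeR's quasi-likelihood test).

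The Lce3 genes show how much 1 library weighed. The fitted log2 fold changes of VLNT over LE were -3.16 ± 1.999 for Lce3b and -2.96 ± 1.89 for Lce3c, and without LE1 they were 0.92 and 0.54. The fit without LE1 kept LE4, which held 0 counts of both genes. The mean of LE2 and LE3 was 3.66 CPM for Lce3b, against 4.63 in VLNT, and 13.93 CPM for Lce3c, against 13.52 in VLNT. LE1 held 158 CPM of Lce3b, 43.1 times the mean of LE2 and LE3, and 393 CPM of Lce3c. Its long transcripts were low instead: Flg2 stood at 7.99 CPM in LE1, against a mean of 262.5 CPM in LE2 and LE3. Over 34 members with a longest transcript under 1 kb, the median ratio of LE1 to the mean of LE2 and LE3 was 3.37 (range 0.0422 to 43.1). Over 7 members of 1 to 4 kb it was 3.58 (0.147 to 5.47), and over the 5 members longer than 4 kb it was 0.218 (0.0304 to 0.862). Ribosomal protein genes made up 16.8% of the counts of LE1 and mitochondrial genes 0.433%. Whether RNA quality in LE1 accounts for these values was not tested.

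**Figure D5:**
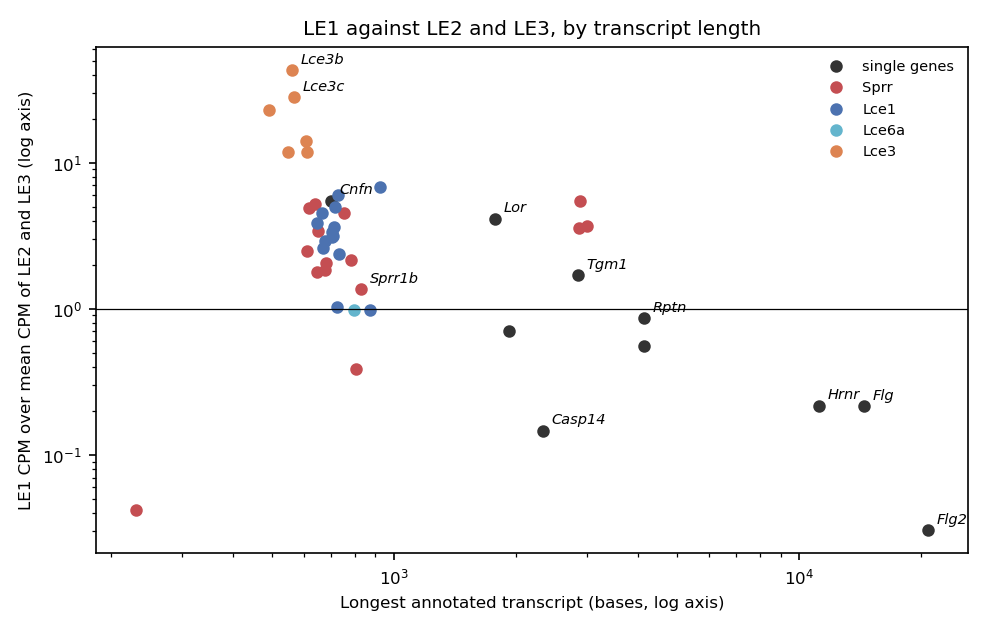
Ratio of the CPM of each member in LE1 to its mean CPM in LE2 and LE3 (log axis, y) against the length of its longest GENCODE vM21 transcript (log axis, x). All 5 members longer than 4 kb lie below 1, and those under 1 kb scatter from 0.0422 to 43.1.

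Other genes of cornification were counted for comparison, from lists chosen with earlier results known. On the CPM scale 0 genes of each list passed edgeR's quasi-likelihood test for VtA against VLNT. The median log2 fold changes were -2.04 for 21 other genes of the epidermal differentiation complex (20 lower), -1.70 for 16 envelope scaffold and desmosome genes (16 lower), -1.76 for 16 genes of filaggrin and loricrin processing (14 lower), -1.65 for 15 lipid envelope genes (14 lower) and -1.09 for 27 regulators of differentiation (23 lower). These compare with -3.43 for the members. Relative to basal keratin in all 12 libraries, 5 of the 21 complex genes rose and 1, Tchhl1, fell (-8.04 ± 3.36, adjusted p = 0.0367 by edgeR's quasi-likelihood test). On that scale 0 of 16 scaffold genes, 3 of 16 processing genes, 3 of 15 lipid genes and 11 of 27 regulators were called, all higher, where 84.1% of all genes were.

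Some members share sequence, and the counting of reads that fit several genes is not stated in the labels. The share of 100-base windows of a member's transcripts that also occur in other genes was 92.8% for Sprr2a2, 92.5% for Sprr2a1, 43.0% for Lce3f, 36.4% for Lce3e, 36.2% for Sprr2a3, 28.3% for Lce3d and 24.1% for Lce3c, and under 5% for each of the others. The split of counts between Sprr2a1 and Sprr2a2, and in part among the Lce3 genes, is therefore uncertain, whereas Lor, Flg2, Rptn, Sprr1b, Sprr2d and Lce1m do not depend on it. Tgm3 overlaps Gm52561 and Mir6339, Lce6a and Lce1a1 overlap Gm35639, and Flg overlaps Rplp0-ps1.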

How the data were processed

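Hindlimb RNA of 12 mouse libraries (4 each of VtA, VLNT and LE) was analysed from the authors' gene tables, with groups and numbers taken from the labels. The values are read counts per gene, deposited by the authors without normalization, together with their TPM and FPKM values; counts were tested, TPM served to compare genes, and FPKM was not tested. The submitters' processing notes name the aligner HISAT2 2.1.0, the assembler StringTie 2.1.3b, Trimmomatic and bcl2fastq 2.20.0, and the builds mm10 and GRCh38 without a role. For the strand setting, the annotation and reads that fit several genes, the settings were not given in the sources used here, so antisense and near-identical genes may be mixed. The members and all gene lists were chosen with earlier results of these data known.

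Genes were filtered with filterByExpr of edgeR 4.0.16 in R 4.3.3, which left 19740 genes, 46 of the 47 members (Sprr3 was dropped) and at least 99.87% of each library's counts. The quasi-likelihood test was fitted to all 3 groups with TMM normalization, and again with Krt5 plus Krt14 counts as the library size; p-values were adjusted by Benjamini-Hochberg over all genes, with a threshold of 0.05. Alternatives were DESeq2 1.42.0, limma 3.58.1 on log2 TPM, other filters, denominators and normalizations, a replicate block, and libraries left out in turn or together. Library totals of 56042030 to 72540147 counts limit precision little, but VtA1 and LE4 hold few epidermal counts. None of 18 pairs of libraries within a group was identical. The test was also run on simulated counts, without LE4 and VtA1 on the relative scale, and no result given here rests on that run. Members named with values in every library are the 10 single genes, the 5 Sprr and 5 Lce genes of highest mean TPM, and members called in a fit of all 12 libraries or, where there was none, the 3 of smallest p, 29 in all. Sprr2a1, Sprr2h, Lce1c, Lce1l and the length classes were named after their values were seen. Promoter sequences are those of RefSeq, GRCm38.p6.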

Additional observations from a re-analysis of the deposited data

Results flagged for a closer look

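In each group of 4 libraries the highest or lowest value of 29 named members was compared with the other values, on both scales. A library was listed when its gap to the nearest other library exceeded Dixon's 95% critical share of the group's range. Of 174 groups 38 were listed. The VtA groups of Sprr2j-ps, Sprr2k and Lce3b, at 0 in all 4 libraries, are among the 174 but have no range and could not be listed. Chance alone lists about 1 in 20 where values are normally distributed and groups independent, whereas all relative levels of a library share its denominator.

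VtA1 gave 16 of the listed values, all as counts per 1000 Krt5 plus Krt14 counts and all far above VtA2 to VtA4. They were 5620 for Flg, 3400 for Hrnr, 1400 for Lor, 1260 for Rptn, 1060 for Flg2 and 1060 for Casp14. They were also 681 for Lce1a1, 383 for Cnfn, 340 for Lce1b, 234 for Ivl and 234 for Lce1a2. The lowest were 170 for Tgm1, 170 for Tgm3, 85.1 for Sprr1b, 63.8 for Sprr2d and 42.6 for Lce1f. The denominator of VtA1 is 47 counts.

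VtA3 stood above the other VtA libraries in Sprr2 and Lce3 genes. On the CPM scale its values were 92.7 for Sprr2a2, 5.66 for Rptn, 1.41 for Sprr2d, 0.25 for Sprr2i, 0.236 for Sprr2e, 0.111 for Lce3a and 0.0974 for Sprr2b. On the relative scale they were 39.2 for Sprr2a2, 0.0999 for Sprr2e, 0.047 for Lce3a and 0.0411 for Sprr2b. VtA3 also had the most Krt5 plus Krt14 of the VtA libraries, 170151 counts.

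LE1 was far above the other LE libraries in Lce3 genes, with 393 CPM of Lce3c, 158 CPM of Lce3b and 46.3 CPM of Lce3a, and with relative levels of 19.6 for Lce3c and 7.87 for Lce3b. LE4, whose denominator is 138 counts, stood high in the relative levels of Lor (246) and Tgm1 (72.5). VLNT4 stood above the other VLNT libraries in the relative levels of Sprr2a2 (151) and Flg2 (92.2). VLNT1 stood high in Sprr4 (61.4 CPM) and in the relative level of Sprr1a (68.5). The causes of these values were not tested.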

How the results depend on the processing

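DESeq2 called 152 genes and 13 members for VtA against VLNT, 797 and 16 for VtA against LE, and 1 gene for VLNT against LE, where edgeR called 0 each on the CPM scale. With only the compared groups in the fit, 1 gene was called for VtA against VLNT on that scale, and relative to Krt5 plus Krt14 there were 11 members for VtA against VLNT and 14309 genes for VLNT against LE. Without a filter on low counts the relative scale gave 3 members for VtA against VLNT, 106 genes for VtA against LE and 30 genes for VLNT against LE. With Krt14 alone as denominator 14433 genes were called for VLNT against LE, and with Krt5 alone 148 genes and 2 members for VtA against LE. With Krt1 plus Krt10 there were 0 genes and 0 members for VtA against VLNT and 15693 genes for VLNT against LE; log2 fold changes of VtA over VLNT turned negative for Flg (-0.92), Rptn (-1.42), Cnfn (-0.09), Tgm3 (-1.10), Casp14 (-0.49) and Sprr2d (-3.42).

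Libraries of the same number deviated together in some pairs and in opposite directions in others. Values of r were -0.244, 0.128, 0.0469 and 0.0592 between VtA and VLNT. They ran from -0.434 to 0.681 between VLNT and LE, and from -0.419 to 0.469 between VtA and LE. Whether the numbers pair the samples is not settled by these values. With a replicate block, 0 genes and 0 members were called for VtA against VLNT on the relative scale, and Flg (-0.52), Rptn (-3.44), Tgm3 (-0.07) and Sprr2d (-2.70) turned negative.

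Leaving out libraries gave these ranges. On the CPM scale calls for VtA against VLNT ran from 0 to 10 genes and 0 to 1 member, and for VtA against LE from 0 to 6288 genes and 0 to 31 members. On the relative scale they ran from 0 to 18062 genes and 0 to 23 members for VtA against VLNT, 0 to 17909 genes and 0 to 20 members for VtA against LE, and 0 to 16905 genes for VLNT against LE. Relative log2 fold changes of VtA over VLNT ran from -1.14 to 3.41 for Casp14, -0.18 to 3.24 for Cnfn, -2.23 to 3.16 for Flg, -0.09 to 3.54 for Hrnr, -4.85 to 3.07 for Rptn, -4.94 to 1.11 for Sprr2d and -1.33 to 2.72 for Tgm3, negative wherever VtA1 was left out. On the CPM scale Flg2 ran from -0.80 to 0.17 (positive without VLNT4 or VtA1) and Lce1m from -1.06 to 0.05 (positive without VLNT1). For VLNT over LE, Lce3b ran from -4.01 to 0.92 and Lce3c from -3.79 to 0.54. Both were positive when LE1 alone was left out. With LE1, LE4 and VtA1 left out together, Lce3b was positive and Lce3c was not. The causes were not tested. From the fit without VtA1 and LE4 only LE1 was left out further. Members with a few counts in VtA, such as Lce3a and Sprr2b, are limited by depth.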

Other observations

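The 2 libraries with almost no basal keratin still held some counts of envelope genes, whose origin was not tested. VtA1 had 820 member counts beside 47 counts of Krt5 plus Krt14, and LE4 had 92 beside 138. By TPM, Lce1 genes with Lce6a held 49.9% of the members' sum in VtA1, close to the other VtA libraries, and Lce3 genes 0%. Other classes differed: Ivl, Rptn, Casp14, Tgm1 and Tgm3 held 14.1% in VtA1 and 4.29%, 5.15% and 4.65% in VtA2 to VtA4. Cnfn held 9.61% in VtA1 and 3.40%, 4.89% and 3.07% in the others, Sprr1 and Sprr4 genes 1.39% and 8.09%, 10.3% and 3.69%, and Lor 11.6% and 19.98%, 17.4% and 22.0%. The S100-fused genes Flg, Flg2 and Hrnr held 12.5% in VtA1 and 9.34%, 5.55% and 11.4% in VtA2 to VtA4, against 3.29%, 6.16%, 6.99% and 9.30% in VLNT and 0.300%, 3.76%, 4.75% and 7.98% in LE.

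Krt77, a keratin of suprabasal cells and eccrine ducts, stood at 874, 799 and 753 per 1000 Krt5 plus Krt14 counts in VtA2 to VtA4, against 66.9, 46.9, 129 and 474 in VLNT and 19.3, 118 and 54.0 in LE1 to LE3. It was at 0 in VtA1 and at 819 in LE4, whose denominators are 47 and 138 counts. VtA2 to VtA4 were above all VLNT libraries and above LE1 to LE3, as were most genes on this scale. Summed CPM of 12 hair follicle genes ranged over 0.151 to 88.7 in VtA, 4.89 to 3859 in VLNT and 0.148 to 10380 in LE. Summed CPM of neutrophil genes ranged over 2.17 to 135 in VtA, 50.8 to 793 in VLNT and 1.42 to 12330 in LE.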
